A study of Mus musculus with 21 samples.

Results

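Macrophages collected from the mouse peritoneal cavity 72 h into zymosan peritonitis were compared with the resident macrophages of naive mice, on 6 of the 21 Affymetrix arrays of the series, 3 for each group. Zymosan is a yeast cell wall preparation that phagocytes ingest, and it was given intraperitoneally. The 72 h group comprised F4/80+ CD11b+ cells of zymosan-treated mice, and the resident group comprised F4/80(high) CD11b(high) cells of untreated mice. Female C57BL/6 mice of 7 to 8 weeks gave both groups, with no genetic change named in the labels. The arrays are labelled as biological replicates, and whether animals were pooled is not stated. The groups differ in the sort gate as well as in treatment, so that gate and inflammation cannot be told apart in this comparison. Macrophages sorted at 168 h as F4/80(high) and Ly-6B- (3 arrays) served as a second point of reference. Ly-6B is a surface antigen of neutrophils and monocytes, and the bone marrow monocytes of this series were sorted as Ly-6B+.

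Resident peritoneal macrophages are long-lived cells whose identity depends on the transcription factor Gata6, and they carry the phosphatidylserine receptor Timd4. In peritonitis, monocytes leave the bone marrow through the chemokine receptor Ccr2, enter the cavity and mature into macrophages as the inflammation resolves. Both kinds of cell can then be F4/80+ in the same lavage, and the array reads their RNA as a mixture. A lower signal may therefore mean fewer cells of a type or less RNA per cell, and these cannot be told apart in bulk samples.

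Signals are MAS5 values on a linear scale, and fold changes (72 h minus resident) are on the scale of log2(signal + 15), which understates the change of genes near the floor. A gene was called changed when limma, fitted over all genes and arrays, gave a Benjamini-Hochberg adjusted p under 0.05 and a change of at least 2-fold. Of 12169 genes tested, 89 were called (0.731%), 86 of them higher (0.707%) and 3 lower (0.0247%). Every 72 h array lay above every resident array for 768 genes (6.31%) and below for 1104 genes (9.07%), and the median change over all genes was -0.04. The median signal of an array was 74.4 to 88.9 at 72 h and 84.8 to 87.1 in resident cells, and the arrays within a group had a Pearson r of 0.965 to 0.978 over genes, a description since genes are not independent. The 3'/5' ratio of the Gapdh control probe sets, a measure of RNA integrity, was 1.98 to 2.46 at 72 h and 2.04 to 2.29 in resident cells. That of the Actb control was 1.61, 1.42 and 1.51 at 72 h, against 1.92, 1.54 and 1.83 in resident cells. Resident replicates 1 and 3 thus lay above every 72 h array in the Actb ratio, and its part in the results was not tested.

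Both groups carried the RNA of macrophage markers, which is no measure of maturity here. Adgre1 and Itgam encode the F4/80 and CD11b used to sort both groups, so their signal is tied to the gate. Csf1r was also bright in monocytes, with a mean of 24498 in bone marrow and 26568 at 4 h. The F4/80 gene Adgre1 had signals of 29794, 33098 and 34427 at 72 h, against 33763, 36328 and 36602 in resident cells, and the growth factor receptor Csf1r had 26789, 27622 and 29396 at 72 h, against 30213, 31108 and 34661. None of 6 macrophage markers was called, and their summed signal was 80913 to 97688 at 72 h and 88900.3 to 100210.5 in resident cells. The 72 h arrays were not alike. On the leading principal component of all 21 arrays (48.5% of the variance), 72 h replicate 3 lay at -50.4, near the resident arrays at -56.9 to -54.4, whereas replicates 1 and 2 lay at -38.0 and -37.6. Replicate 2 had the highest signals of several markers of other cells. The B cell gene Ms4a1 (CD20) had 267, 5384 and 289 in replicates 1 to 3 at 72 h, against 432, 175 and 314 in resident cells, and the mast cell protease gene Cpa3 had 140, 3408 and 131 at 72 h, against 182, 178 and 317. The results below are therefore given with their values in each array, and the counts of called genes without replicate 2 were 59 higher and 2 lower, and without replicate 3 they were 168 higher and 25 lower.

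The 5 genes that mark the comparison separated the groups without overlap. They were chosen with earlier results of these data known, so their separation and p-values describe them and support nothing. Ccr2, the receptor for Ccl2 that brings monocytes into inflamed tissue, had signals of 8365, 4095 and 3406 in the 72 h arrays, against 317, 98.4 and 130 in resident macrophages, a change of 4.80 ± 0.34 (SE; adjusted p = 2.4e-08). All 3 further probe sets of Ccr2 rose as well, by 1.95 to 3.15. Ltb4r1, the high-affinity receptor for the chemoattractant leukotriene B4, had 628, 432 and 300 at 72 h, against 4.70, 7.96 and 5.86, a change of 4.41 ± 0.26 (adjusted p = 4.6e-09). Its resident signals lie below the 15 that was added, so the fold given is smaller than the ratio of the signals.

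Ctla2a, whose product inhibits cathepsin L-like cysteine proteases, had 1760, 1578 and 2590.4 at 72 h, against 104, 79.4 and 155 in resident cells, a change of 3.97 ± 0.29 (adjusted p = 2.5e-08). Ccl5, a chemokine that attracts T cells and monocytes, had 211, 481 and 498 at 72 h, against 15.1, 10.4 and 8.67, a change of 3.88 ± 0.40 (adjusted p = 6.1e-06). These 4 genes were called with any of the 6 arrays left out. Hes1, a transcriptional repressor that is a target of Notch signalling, went the other way, with 1031, 1136 and 1456 at 72 h, against 2105, 3946 and 3302, a change of -1.33 ± 0.28 (adjusted p = 0.017). The call of Hes1 was lost without 72 h replicate 1, 72 h replicate 2, resident replicate 2 or resident replicate 3, with adjusted p up to 0.11.

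**Figure D1:**
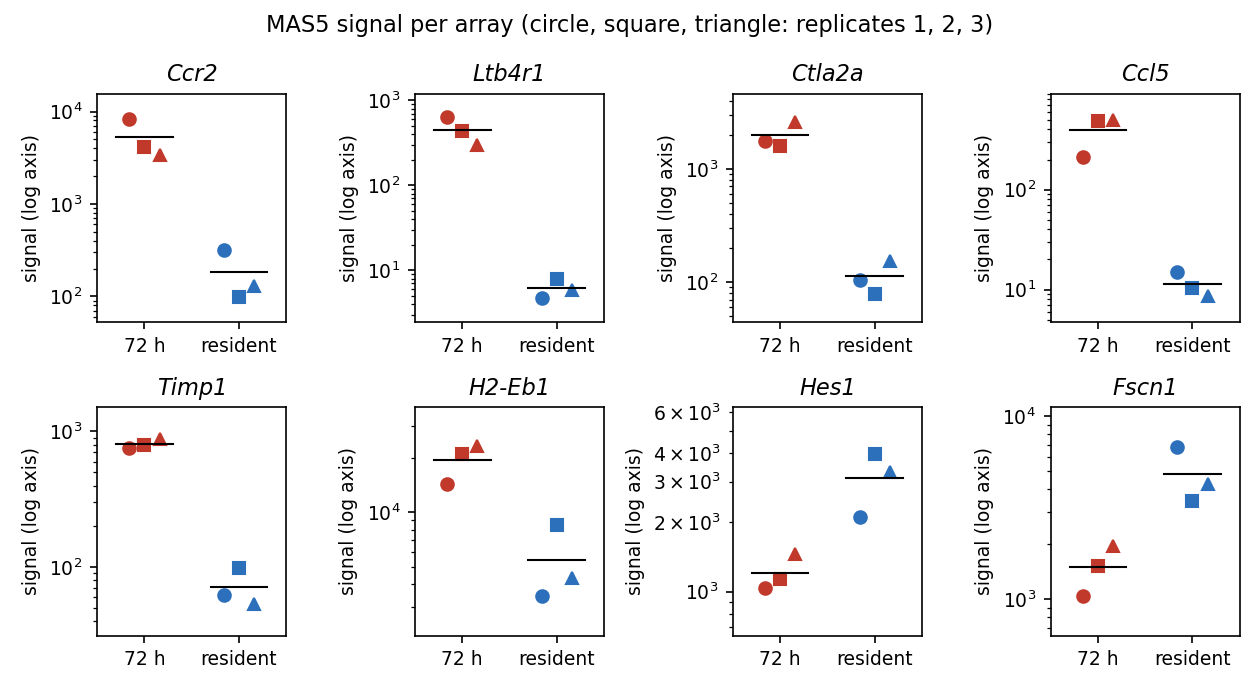
MAS5 signal (log axis) of 8 genes in each array, 72 h macrophages in red and resident macrophages in blue, with symbols for replicates 1 to 3 and a line at the group mean. Ccr2, Ltb4r1, Ctla2a, Ccl5, Timp1 and H2-Eb1 are higher in every 72 h array, and Hes1 and Fscn1 are lower in every 72 h array.

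Ctla2b, a close relative of Ctla2a on the same stretch of chromosome 13, was not called. It had 3272, 3594 and 4891 at 72 h, against 4437, 4628 and 4648 in resident cells, a change of -0.24 ± 0.17 (adjusted p = 0.69). The genes share much of their sequence, so that a probe set of either may take up some RNA of the other. The 250 bases upstream of their starts are shown because the promoters are also alike, while the signals are not. In RefSeq sequence on GRCm38.p6, both on the minus strand, they aligned over 228 positions of which 208 were identical (91.2%), and capitals mark TGACGTC, the core of a cyclic AMP response element, which begins 50 bases upstream of the start of Ctla2a and 72 upstream of that of Ctla2b. Of 2 starts listed for Ctla2a, the one that aligned best with Ctla2b is shown.
Ctla2a, chr13:60936626-60936875: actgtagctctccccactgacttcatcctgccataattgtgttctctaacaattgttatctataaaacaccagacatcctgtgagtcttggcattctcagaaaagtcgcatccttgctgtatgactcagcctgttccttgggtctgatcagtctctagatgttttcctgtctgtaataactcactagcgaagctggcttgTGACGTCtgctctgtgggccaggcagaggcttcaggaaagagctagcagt
Ctla2b, chr13:60897448-60897697: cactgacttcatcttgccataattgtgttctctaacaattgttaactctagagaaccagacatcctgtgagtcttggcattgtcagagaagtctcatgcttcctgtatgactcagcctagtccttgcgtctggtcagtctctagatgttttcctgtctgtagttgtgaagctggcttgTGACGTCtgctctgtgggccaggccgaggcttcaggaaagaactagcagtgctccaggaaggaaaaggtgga
On either strand, TGACGTC occurred in 914 of 32851 promoter windows of this length (2.78%). A match is a description of letters, and no factor's binding was measured.

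**Figure D2:**
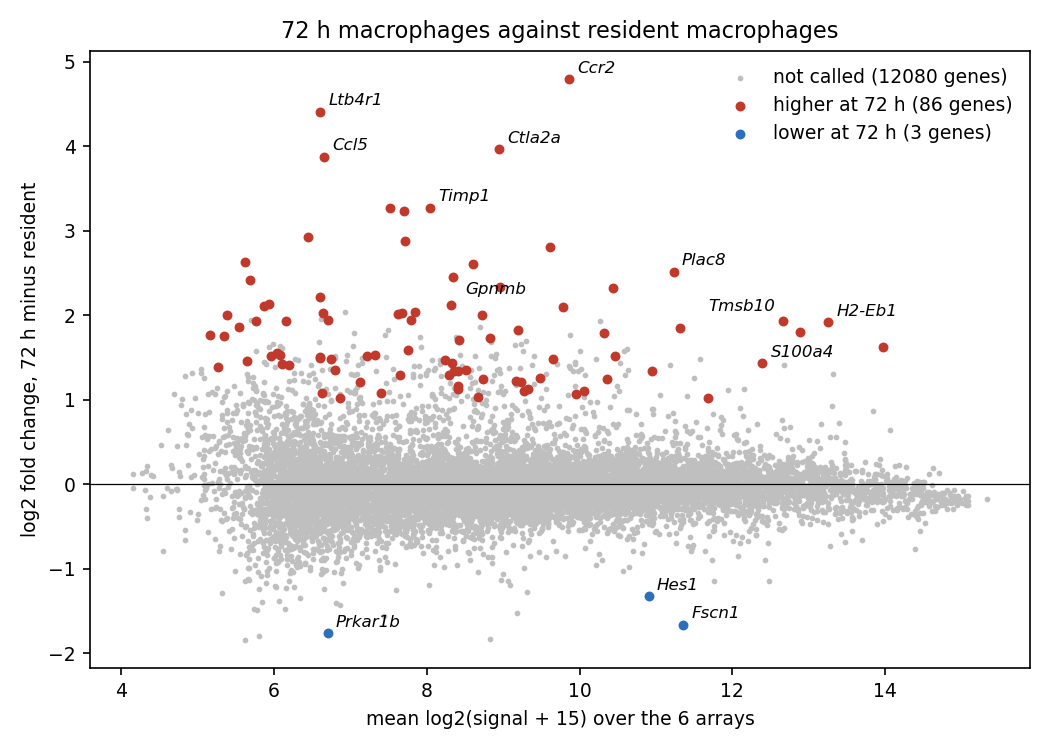
Log2 fold change (72 h minus resident) against the mean log2(signal + 15) over the 6 arrays for 12169 genes, with the 86 genes called higher in red, the 3 called lower in blue and the rest in grey. Called genes lie mainly above the 0 line, with Ccr2 at 4.80 as the highest and Prkar1b at -1.76 as the lowest.

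Genes of monocytes made up the first group that rose, in the list named classical monocyte. The name does not make each member specific to that subset. Of 22 genes listed, 19 were tested, and 9 were called higher (47.4%) and 0 lower, with a list median of 1.05. The list did not rise as a whole, since 14 of the 19 had a positive change and 5 a negative one, down to -0.69. The positive share was 73.7%, beside 43.3% of all genes tested. Over all genes tested 0.731% were called, the background for this and every list below. The lists were chosen with earlier results of these data known, so their shares are a description. The 9 genes called were Ccr2, Chil3, Plac8, Cx3cr1, Ms4a4c, Treml4, S100a4, Napsa and Itgal. Chil3, a chitinase-like lectin also known as Ym1, had 2469.7, 1605 and 2180 at 72 h, against 241, 362 and 250.3 in resident cells, a change of 2.81 ± 0.41 (adjusted p = 0.00038). Plac8, abundant in blood monocytes, had 5579.8, 6220 and 5432 at 72 h, against 603, 1462 and 1092, a change of 2.52 ± 0.26 (adjusted p = 5.8e-06). S100a4, a calcium-binding protein of motile cells, had 9143, 8779 and 8571 at 72 h, against 2790.3, 2997 and 4114, a change of 1.44 ± 0.19 (adjusted p = 0.00010).

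For Chil3, Plac8 and S100a4 the 72 h and resident arrays did not overlap. Ms4a4c had 513, 472 and 232 at 72 h, against 59.1, 137 and 69.4 in resident cells, a change of 2.02 ± 0.32. Cx3cr1, the fractalkine receptor, had 228, 182 and 157 at 72 h, against 68.6, 27.1 and 19.2, a change of 2.03 ± 0.39 (adjusted p = 0.0083). Its call was lost without 72 h replicate 1 or resident replicate 3, and its other probe set changed by -0.22. Napsa, Treml4 and Itgal also lost the call with some array left out, without 5, 2 and 4 of the 6 arrays, among them 72 h replicate 2 for all 3 genes, where adjusted p was 0.24, 0.10 and 0.073. Vcan, a monocyte proteoglycan, and Clec4e, a receptor for mycobacterial glycolipid, did not pass the test, at 0.64 ± 0.23 and 0.15 ± 0.18. F13a1, a transglutaminase of monocytes and macrophages, stood at 0.07 ± 0.21 and was abundant in both groups, with 7894, 6205 and 4320.4 at 72 h, against 6064, 5131 and 5891.

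Receptors for chemoattractants held 3 called genes. Of 27 tested, Ccr2, Ltb4r1 and Cx3cr1 were called higher and 0 lower (11.1%, beside 0.731% over all genes), and the list median was 0.19. Fpr2, a receptor for formyl peptides and lipoxin, had 6268, 4963 and 6960.5 at 72 h, against 2722, 3542 and 3419.6, and its change of 0.90 ± 0.18 had an adjusted p of 0.0090 but stayed under 2-fold. Ccr1, a receptor for Ccl3 and Ccl5, stood at -0.32 ± 0.13, the complement receptor C5ar1 at -0.51 ± 0.24, C3ar1 at 0.04 ± 0.17 and the chemerin receptor Cmklr1 at -0.18 ± 0.18, none of them called. Ccl2, the ligand of Ccr2, had 670, 631 and 919 at 72 h, against 407, 763 and 648, so that the groups overlap (0.31 ± 0.38; adjusted p = 0.85).

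Among the chemokines, a single gene of each class was called. Of 12 CC chemokines tested, Ccl5 was called. Of 13 CXC chemokines tested, Cxcl3, a neutrophil attractant, was called, with 191, 144 and 120.4 at 72 h, against 25.3, 46.9 and 61.3 (1.51 ± 0.28; adjusted p = 0.0066). The call of Cxcl3 was lost without 72 h replicate 1 or resident replicate 1, with adjusted p up to 0.055. Ccl6 had 20633, 23614 and 22609 at 72 h, against 21041, 21839.6 and 21893, and Ccl9 had 18845, 20652 and 18404 at 72 h, against 20247, 17919 and 17632, and in both the groups overlapped. Cxcl13 and Pf4, brighter still in resident cells, were lower in every 72 h array but were not called. Ccl8, at 0.95 ± 0.28, was higher in every 72 h array but was not called. The list of 24 inflammatory cytokines and enzymes tested and the list of 40 interferon response genes tested each held 0 called genes, with medians of -0.08 and 0.02, and the lowest adjusted p was 0.072 in the cytokine list and 0.21 in the interferon list.

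A second group consisted of genes of antigen presentation. MHC class II molecules display peptides to CD4 T cells, and their RNA rises in macrophages exposed to interferon gamma. Of 12 genes tested, H2-Eb1, H2-Ab1 and H2-Aa were called higher (25.0%, beside 0.731% over all genes) and 0 were lower, and the list median was 0.89. The beta chain gene H2-Eb1 had 14245, 20873 and 23121 at 72 h, against 3420.4, 8493 and 4312 in resident cells, a change of 1.92 ± 0.33 (adjusted p = 0.0024). H2-Ab1 had 11912, 13771 and 17019 at 72 h, against 2141, 7887 and 3877, a change of 1.80 ± 0.33 (adjusted p = 0.0051). The alpha chain gene H2-Aa had 26135, 27200.3 and 31726 at 72 h, against 5809, 14265 and 9141, a change of 1.63 ± 0.31 (adjusted p = 0.0081). Its call was lost without resident replicate 1 (adjusted p = 0.066). Further probe sets of H2-Aa stood at 2.06, 1.73 and 0.73, with adjusted p of 0.0036, 0.070 and 0.18.

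Resident replicate 2 was the highest resident array in each of the 3 genes and came closest to the 72 h arrays. The invariant chain gene Cd74 had 14490.3, 18538 and 15124 at 72 h, against 4189.7, 13486 and 4774, so that the groups did not overlap, yet its change of 1.30 ± 0.32 fell short (adjusted p = 0.051), and passed without resident replicate 2 (adjusted p = 0.00033). Ciita, the master regulator of this locus, had 219.7, 199 and 184 at 72 h, against 112, 96.0 and 108, a change of 0.84 ± 0.22 (adjusted p = 0.078). The peptide exchange factor H2-DMa stood at 0.71 ± 0.33 and the class II protease Ctss at -0.17 ± 0.09, neither called. B cells also carry class II RNA, and the part of such cells in these changes was not tested. Without replicate 2, H2-Eb1, H2-Ab1 and H2-Aa stood at 1.86, 1.82 and 1.66 and stayed called.

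The promoters of H2-Aa and H2-Eb1 are shown because class II genes are known to share conserved promoter boxes and here moved together. Each is the 250 bases upstream of the start in RefSeq sequence on GRCm38.p6, H2-Aa on the minus and H2-Eb1 on the plus strand, and capitals mark CTGATTGG, which holds the CCAAT element of the Y box, and TGACGTC or its reverse complement, which stands at the place of the X2 box in H2-Aa.
H2-Aa, chr17:34287824-34288073: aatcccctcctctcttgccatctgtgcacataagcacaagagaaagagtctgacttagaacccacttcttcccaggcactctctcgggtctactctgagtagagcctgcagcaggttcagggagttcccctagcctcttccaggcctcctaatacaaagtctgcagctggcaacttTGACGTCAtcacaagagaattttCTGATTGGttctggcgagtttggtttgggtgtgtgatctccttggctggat
H2-Eb1, chr17:34305617-34305866: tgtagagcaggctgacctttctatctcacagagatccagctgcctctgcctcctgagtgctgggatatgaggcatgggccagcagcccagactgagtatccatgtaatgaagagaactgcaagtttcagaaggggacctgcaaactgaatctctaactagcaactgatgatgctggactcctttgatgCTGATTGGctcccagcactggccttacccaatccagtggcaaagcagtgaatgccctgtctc
CTGATTGG began 51 bases upstream of the start in H2-Aa and 62 in H2-Eb1, and on either strand it was found in 1258 of 32851 promoter windows (3.83%). TGACGTC began 74 bases upstream in H2-Aa, and these letters were not in the window of H2-Eb1.

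Genes of tissue remodelling included 2 that were called. Timp1, a secreted inhibitor of metalloproteinases, had 751, 789.9 and 878 at 72 h, against 62.7, 98.4 and 54.1 in resident cells, a change of 3.27 ± 0.23 (adjusted p = 2.4e-08). Mmp14, a membrane-bound metalloproteinase, had 464, 365 and 368 at 72 h, against 82.5, 87.0 and 88.7, a change of 2.03 ± 0.19 (adjusted p = 1.6e-06). A second probe set of Mmp14 changed by 0.64 ± 0.51 and did not pass (adjusted p = 0.76). The groups do not overlap in either gene. Timp1 and Mmp14 were the members called among 33 growth factor and matrix genes tested (6.06%, beside 0.731% over all genes), whose median was -0.16. Igf1, a growth factor made by tissue macrophages, had 2141, 1960.3 and 2958 at 72 h, against 6472, 3977 and 5275, groups that do not overlap, but its change of -1.15 ± 0.51 was not called (adjusted p = 0.41). Ecm1, a matrix protein, had an adjusted p of 0.037 at a change of -0.46 ± 0.11, under 2-fold.

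Tgm2, a transglutaminase that takes part in the uptake of apoptotic cells, had 4066, 4788 and 5704 at 72 h, against 934, 1438 and 1718, a change of 1.85 ± 0.29 (adjusted p = 0.0010). Itgb5, an integrin chain that binds apoptotic cells through a bridging protein, had 287, 252 and 236 at 72 h, against 78.7, 89.0 and 70.4, a change of 1.53 ± 0.16 (adjusted p = 5.8e-06). They were the 2 genes called higher of 23 uptake genes tested (8.70%, beside 0.731% over all genes), with 0 lower and a median of -0.14. Of 25 genes of alternative activation tested, Chil3, Tgm2 and the folate receptor gene Folr2 (1.25 ± 0.28) were called, and Folr2 lost its call on leaving out any 1 array other than 72 h replicate 1, with adjusted p up to 0.20. Arg1, which splits arginine, stood at 0.86 ± 0.31, the mannose receptor Mrc1 at 0.84 ± 0.21 and Retnla, a secreted product of alternative activation, at 0.93 ± 0.32, none of them called.

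Of 28 lysosomal genes tested, 1 was called, and the list median was 0.02. Outside that list, Gpnmb, a glycoprotein of lysosomes in lipid-laden macrophages, had 503, 1074 and 763 at 72 h, against 112, 118 and 144 in resident cells, a change of 2.45 ± 0.38 (adjusted p = 0.0010). With the mean of its probe sets Gpnmb stood at 1.10 and was not called (adjusted p = 0.21). The lysosomal gene called was Acp5, tartrate-resistant acid phosphatase, which had 322, 589 and 491 at 72 h, against 194, 109 and 41.8, a change of 2.04 ± 0.32 (adjusted p = 0.00094). Among 13 cathepsin inhibitors and related genes tested, Ctla2a and Stfa3 were called. Stfa3, a stefin that the neutrophil list also holds, had 230, 189.5 and 169.7 at 72 h, against 52.7, 37.7 and 11, and its call was lost on leaving out any 1 array other than 72 h replicate 3, with adjusted p up to 0.19.

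Tmsb10, Gsn and Coro1a were called higher and belong to no list tested here. Tmsb10, which binds actin monomers, had 14450.3, 13486 and 10518 at 72 h, against 3009, 3761 and 3227 in resident cells, a change of 1.93 ± 0.14 (adjusted p = 2.5e-08). Gsn, which severs actin filaments, had 681, 856 and 294 at 72 h, against 74.8, 58.5 and 55.7, a change of 2.88 ± 0.33 (adjusted p = 1.8e-05). Coro1a, an actin-binding protein of leukocytes, had 4119, 5070.2 and 1415 at 72 h, against 660, 774 and 437, a change of 2.32 ± 0.32 (adjusted p = 0.00026). In all 3 genes 72 h replicate 3 was the lowest of the 72 h arrays, and for Coro1a the value without it was 2.88. Of 4 further probe sets of Tmsb10, those at 2.05 and 1.40 were higher on average, the first with an adjusted p of 7.4e-06 and the second with one of 0.17, and the others stood at 0.09 and -0.09.

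Fscn1, which bundles actin filaments in cell protrusions, was lower, with 1041, 1509 and 1964 at 72 h, against 6811, 3444 and 4249.9, a change of -1.66 ± 0.36 (adjusted p = 0.023). The call was lost without 72 h replicate 1, 72 h replicate 2, resident replicate 1 or resident replicate 3, and a second probe set of Fscn1 changed by -0.52 and was not called. The remaining gene that was lower was Prkar1b, a regulatory subunit of protein kinase A, with 34.9, 71.1 and 27.5 at 72 h, against 162, 168 and 203, a change of -1.76 ± 0.34 (adjusted p = 0.0088). It lost its call without 72 h replicate 1 or resident replicate 3, and its 3 further probe sets stood at -0.11, 0.50 and 0.04.

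Further genes with large changes had no list in common. Saa1, an acute-phase protein, had 336, 549 and 933 at 72 h, against 54.8, 31.5 and 48.9 in resident cells, a change of 3.27 ± 0.36 (adjusted p = 1.1e-05). Kcnn4, a calcium-activated potassium channel, had 1037, 662 and 355 at 72 h, against 87.7, 34.5 and 47.6, a change of 3.23 ± 0.33 (adjusted p = 5.8e-06). Basp1, a membrane-associated signalling protein, had 965, 1305 and 681 at 72 h, against 147, 162 and 123, a change of 2.61 ± 0.24 (adjusted p = 1.5e-06). Fcrls, a relative of Fc receptors, stood at 2.33 ± 0.43, and its call was lost without 72 h replicate 2 (adjusted p = 0.051). The remaining genes among the 20 largest were E230016K23Rik (2.93), Wfdc21 (2.63, lost without 72 h replicate 2), Flrt3 (2.41), AA414768 (2.13) and Cnn3, a calponin that binds actin (2.13). The glucose transporter Slc2a1 was the member called of 24 genes of glycolysis and hypoxia tested, at 1.22 ± 0.18 (adjusted p = 0.00036). Il7r and Flt1, receptors for interleukin 7 and for vascular growth factors, were called among 32 cytokine and growth factor receptors tested, but at low signal, with 53.6, 47.9 and 52.6 for Flt1 at 72 h, against 5.72, 2.81 and 5.27, and Flt1 lost its call on leaving out any 1 of the 6 arrays, as Il7r did without 3 of them, including 72 h replicate 2 (adjusted p = 0.20).

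Genes of resident macrophage identity stayed abundant at 72 h. Of 31 genes tested, 0 were called in either direction, and the lowest adjusted p was that of Apoc1 (0.057). The list median was -0.27, beside -0.04 over all genes, and in 16 of the 31 genes every 72 h array lay below every resident array, where the background for such a gene is 9.07%. Timd4 had 12640.5, 12561 and 16539.5 at 72 h, against 18688, 19135 and 18075 in resident cells, a change of -0.43 ± 0.34 (adjusted p = 0.73). Gata6 had 2873, 3599.8 and 3749 at 72 h, against 3979, 4778 and 3808, a change of -0.30 ± 0.20 (adjusted p = 0.66). Replicate 3 held the highest 72 h signal of both genes, the array that also lay nearest to the resident group.

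Other members of the list were examined in the same way. Apoc1, an apolipoprotein, had 245, 325 and 445 at 72 h, against 1120.5, 1035 and 791, a change of -1.52 ± 0.38. Cxcl13, the B cell chemokine of the serous cavities, had 9839, 18945 and 23939 at 72 h, against 26673, 26686 and 30926, a change of -0.77 ± 0.42 (adjusted p = 0.55). Selp, P-selectin, had 8216, 8094 and 10923 at 72 h, against 15055, 13691 and 14526, a change of -0.68 ± 0.26 (adjusted p = 0.30). Alox15, the enzyme that makes lipid mediators of resolution, had 25010.5, 28186 and 28968 at 72 h, against 32000.4, 32402 and 36305, a change of -0.29 ± 0.65. The 17 ribosomal protein genes tested, which are bright in every array, had a median of -0.20 with 0 called. All 17 had a negative change, from -0.41 to -0.12, and in 5 every 72 h array lay below every resident array. A small fall was thus not particular to the resident list, and whether the 2 lists differ was not tested.

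**Figure D3:**
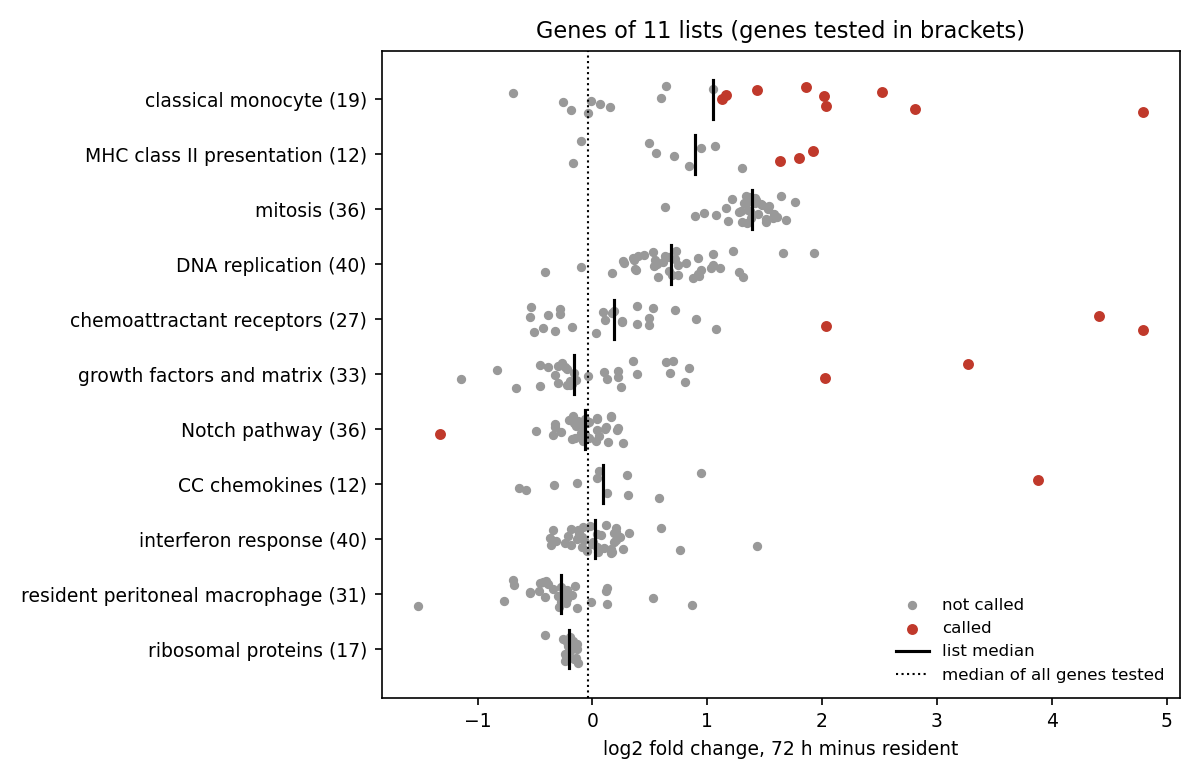
Log2 fold change (72 h minus resident) of every tested gene in 11 lists, called genes in red, list medians as black bars and the median of all genes as a dotted line. The classical monocyte, MHC class II, mitosis and DNA replication lists have medians of 1.05, 0.89, 1.39 and 0.68, and the resident macrophage list has a median of -0.27 with 0 called genes.

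Hes1 was also examined beside the other genes of the Notch pathway. Notch receptors are cut after they bind a ligand on a neighbouring cell, and the freed part turns on target genes such as Hes1 with the DNA-binding protein Rbpj. Of 36 pathway genes tested, Hes1 was the one called, and the list median was -0.06. The receptor Notch1 had 3105, 2909 and 2778 at 72 h, against 3488, 4015 and 3563, a change of -0.33 ± 0.12, and Notch2 had 8759, 6373 and 9677 at 72 h, against 9468, 8501 and 8993, a change of -0.14 ± 0.18. The ligand Jag1 stood at -0.49 ± 0.29, the protease Adam10 at 0.26 ± 0.13 and Rbpj at -0.20 ± 0.15, with adjusted p of 0.60, 0.49 and 0.70. Among 37 transcription factors of macrophages tested, Hes1 was again the one called.

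The listed genes of the cell cycle had mostly positive changes at 72 h, varied between arrays and did not pass the test. All 36 mitosis genes tested had a positive change, with a list median of 1.39, and 0 were called. Of 40 DNA replication genes, 38 had a positive change, with a median of 0.68, and 0 were called. Dna2, a DNA replication gene outside these lists, was called higher, at 1.26 ± 0.22. It kept its call with each array left out, with adjusted p up to 0.026, but further probe sets at 0.84 and 0.80 did not pass (adjusted p = 0.11 and 0.49). The proliferation marker Mki67 had 4757, 11519 and 2411 at 72 h, against 662, 2548 and 3536, so that the groups overlap. Rrm2, a subunit of ribonucleotide reductase, had 2074, 4861 and 1362 at 72 h, against 220.2, 991 and 1049.7, and its change of 1.93 ± 0.54 did not pass (adjusted p = 0.11).

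Replicate 2 was the highest 72 h array for all 36 mitosis genes and for 37 of the 40 replication genes, beside 32.8% of all genes. It was also the array with the signals of other cells. Without 72 h replicate 3, where the cell cycle signals were lowest, Rrm2, Top2a and Cdca8 passed, at 2.34, 1.92 and 2.01. Without replicate 2 they stood at 1.43, 0.81 and 1.10 and did not pass, with adjusted p of 0.54, 0.75 and 0.45. The resident arrays differed as well, and the list median of mitosis genes relative to the resident mean was 1.14, 2.64 and 0.42 in 72 h replicates 1 to 3, against -0.99, 0.30 and 0.68 in resident replicates 1 to 3.

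Markers of other cell types were summed in each array. The summed signal of 3 B cell markers was 399, 6466 and 501 in 72 h replicates 1 to 3, and 257 to 649 in resident arrays. That of 3 mast cell markers was 152, 3951 and 159 at 72 h, and 220.2 to 389 in resident arrays. The neutrophil list had S100a8 at 304, 1348 and 328 at 72 h, against 241, 258 and 226, and 6 neutrophil markers summed to 421, 1913 and 522 at 72 h and to 357 to 427 in resident arrays. T and NK cell markers summed to 26.3, 145 and 68.4 at 72 h and to 62.2 to 92.6 in resident arrays. All 3 were highest in 72 h replicate 2, yet below the table median in all 6 arrays. The longer T and NK cell list (8 genes tested) had medians relative to the resident mean of -0.33, 1.98 and -0.11 in 72 h replicates 1 to 3. Those of resident replicates 1 to 3 were 0.14, -0.25 and 0.14. Mesothelial markers summed to 62.8, 138 and 57.2 at 72 h and to 57.0 to 136 in resident arrays. The erythroid marker had at most 45.5 in any of the 6 arrays. Eosinophil markers summed to 54.2, 388 and 93.4 at 72 h and to 43.4 to 120.3 in resident arrays, and dendritic cell markers to 372, 893 and 676 at 72 h and to 547 to 606 in resident arrays. The 3 platelet markers summed to 29052, 29557 and 31179 at 72 h and to 32263 to 38230 in resident arrays, nearly all of it from Pf4, a chemokine gene that macrophages also express. No defining marker of these types was called, although Stfa3 was the 1 gene called higher in the longer list of 16 neutrophil genes tested. The part of such cells in the results was not tested. The changes measured without replicate 2 were 4.93 for Ccr2, 4.41 for Ltb4r1, 4.11 for Ctla2a and 3.70 for Ccl5.

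**Figure D4:**
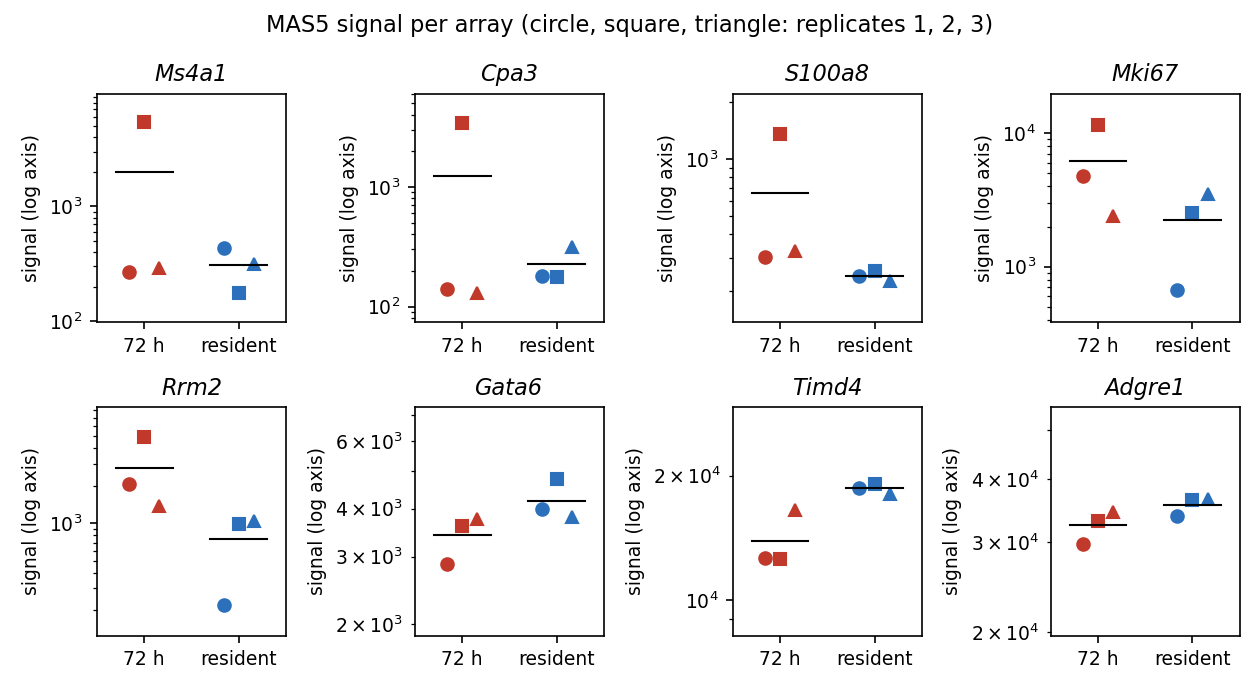
MAS5 signal (log axis) in each array for the B cell gene Ms4a1, the mast cell gene Cpa3, the neutrophil gene S100a8, the cell cycle genes Mki67 and Rrm2 and the macrophage genes Gata6, Timd4 and Adgre1, 72 h in red and resident in blue, with symbols for replicates 1 to 3 and a line at the group mean. The square of replicate 2 stands above the other 72 h arrays for Ms4a1, Cpa3, S100a8, Mki67 and Rrm2.

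Across the 7 groups of the series, the 86 genes called higher followed different courses. The group mean was highest in bone marrow monocytes for 22 of them, in Ly-6B+ cells of 4 h for 30 and in cells of 18 h for 19. For 11 genes it was highest at 72 h and for 4 in Ly-6B+ macrophages of 168 h. The genes were chosen for a high level at 72 h relative to resident cells, so these counts describe them and support nothing. Among all genes tested 5.64% were highest at 72 h. The shares of all genes highest in each other group were not computed, so the monocyte counts have no background beside them. Ccr2 averaged 12011 ± 2050.5 in bone marrow monocytes, 16491 ± 940.3 at 4 h, 16253 ± 2503 at 18 h, 5288 ± 2687 at 72 h, 6848 ± 1173 and 160 ± 65.4 in the Ly-6B+ and Ly-6B- groups of 168 h, and 182 ± 118 in the resident group (SD, n = 3 each). The 72 h mean of Ccr2 lay below the means of the 3 monocyte groups and above those of Ly-6B- macrophages and resident cells, and the same held for Plac8.

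Ctla2a had its highest mean at 72 h, at 1976 ± 539.7, after 358 ± 42.2 at 18 h and before 53.0 ± 8.21 and 166 ± 66.1 in Ly-6B+ and Ly-6B- macrophages of 168 h, with 113 ± 38.6 in resident cells. The other genes with the highest mean at 72 h were Saa1, Klk8, Sel1l3, Gpnmb, Ccl5, Stfa3, Pls3, Ccdc80, Cd55 and Acp5. The serine protease gene Klk8 had 915, 1058 and 1314 at 72 h, against 319, 289 and 279.6 in resident cells (1.82 ± 0.24; adjusted p = 0.00013). Cd55, which shields cells from complement, had 259.7, 603 and 473 at 72 h, against 112, 84.6 and 99.1 (1.95 ± 0.41; adjusted p = 0.017), and its call was lost without 4 of the 6 arrays, with adjusted p up to 0.16 without 72 h replicate 2.

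**Figure D5:**
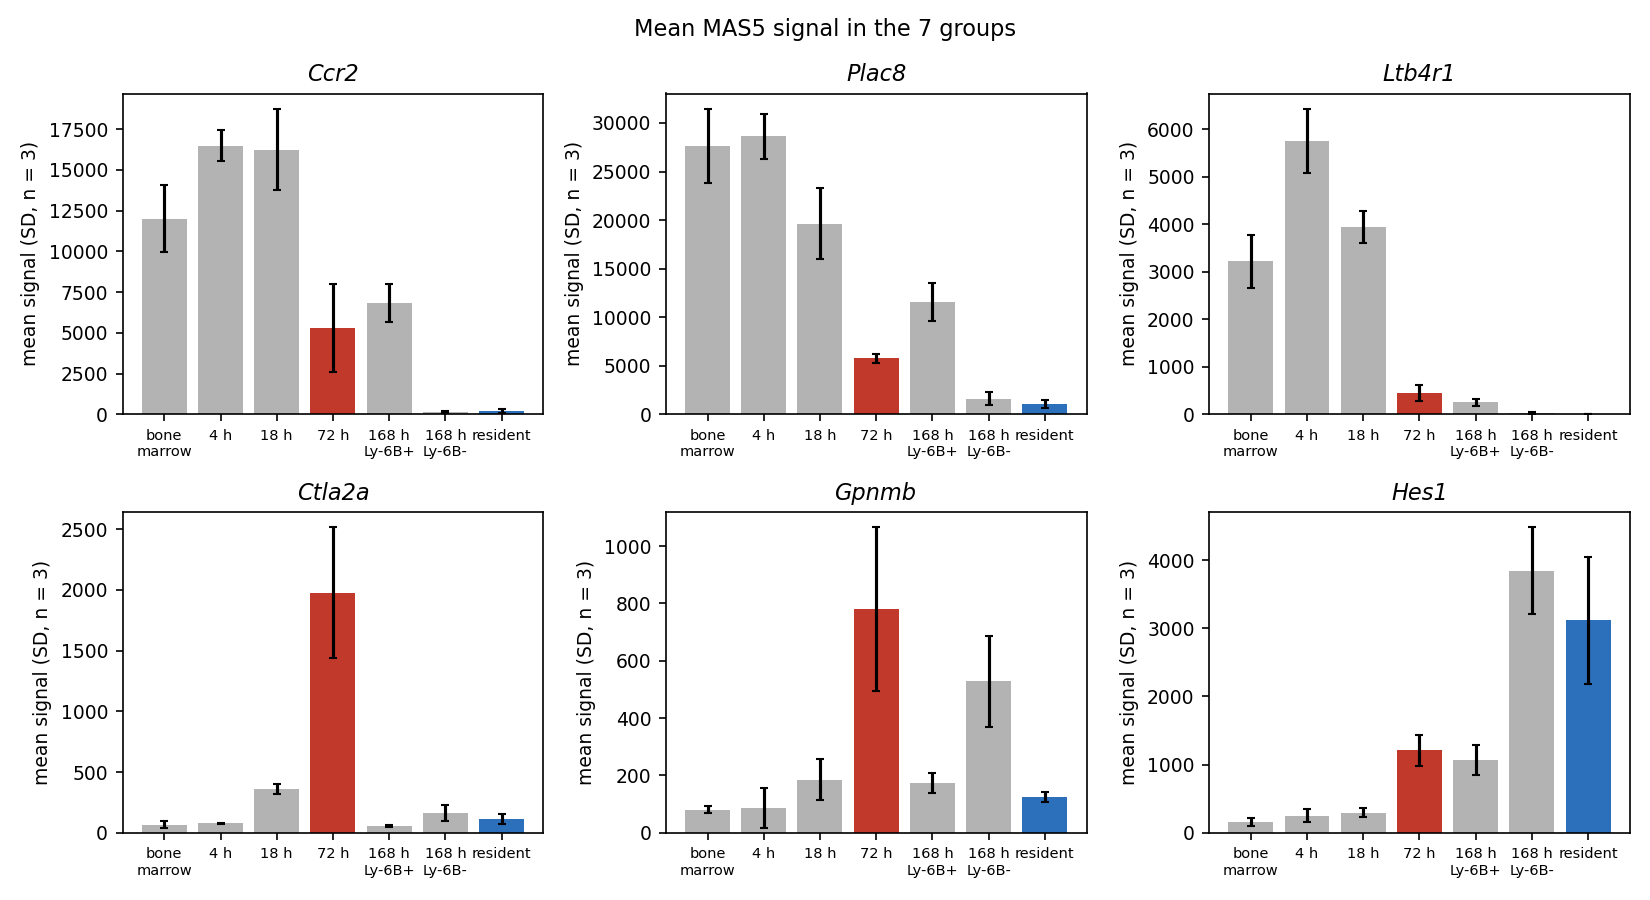
Mean MAS5 signal (error bars SD, n = 3) in the 7 groups for Ccr2, Plac8, Ltb4r1, Ctla2a, Gpnmb and Hes1, with 72 h in red, resident in blue and the other groups in grey. Ctla2a and Gpnmb have their highest mean at 72 h, Ccr2, Plac8 and Ltb4r1 are highest in the monocyte groups, and Hes1 is highest in Ly-6B- macrophages of 168 h.

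The level at 72 h was also set against Ly-6B- macrophages of 168 h, sorted like the resident cells for high F4/80. In that comparison 0.509% of the genes were called. Of the 89 genes called against resident cells, 42 were called there too, all in the same direction, but both comparisons use the same 72 h arrays, so the count is a description. Ccr2 had 8365, 4095 and 3406 at 72 h, against 146, 231 and 103 in Ly-6B- macrophages of 168 h, a change of 4.87 ± 0.34 beside 4.80 against resident cells. Ctla2a had 94.1, 224 and 181 in Ly-6B- macrophages, a change of 3.50 ± 0.29 (adjusted p = 2.0e-07), and Hes1 had 3696, 3304 and 4545, a change of -1.66 ± 0.28 (adjusted p = 0.0029). For these genes the Ly-6B- macrophages of 168 h lay on the same side of the 72 h cells as the resident macrophages did.

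Other genes did not pass the test between 72 h and Ly-6B- macrophages of 168 h. Gpnmb had 503, 1074 and 763 at 72 h, against 417, 457 and 709.9 in Ly-6B- macrophages, a change of 0.52 ± 0.38 (adjusted p = 0.72). Cd55 had 259.7, 603 and 473 at 72 h, against 299, 437 and 430.3, a change of 0.13 ± 0.41 (adjusted p = 0.96), and Tgm2 had 4066, 4788 and 5704 at 72 h, against 2679, 5338 and 4219, a change of 0.29 ± 0.29 (adjusted p = 0.81). A p that misses the threshold does not show that the levels were equal. H2-Eb1 stood at 1.39 ± 0.33 (adjusted p = 0.053) in the same comparison, with 14245, 20873 and 23121 at 72 h, against 6201, 11759 and 5217 in Ly-6B- macrophages.

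Of the 89 genes called, 42 had a further probe set above the filter. These further probe sets numbered 80, of which 71 changed in the direction of the chosen one and 9 in the other. When the probe sets of each gene were averaged, Cx3cr1, Gpnmb, Fscn1, Prkar1b, Il7r, Flt1, Napsa, Sel1l3 and Ptprs were among the genes that lost their call. Of the 86 genes called higher, 11 had a resident mean below 15 and 36 below the table median of 80.6, so that the resident level of these genes is close to the floor of the array. Fitted on the 6 arrays alone, which leaves fewer residual degrees of freedom, 50 genes were called, and of those named above Ms4a4c, Cx3cr1, Coro1a, Acp5, Cxcl3, H2-Ab1, Il7r, Treml4, Flt1, Napsa, Itgal, Prkar1b and Hes1 were among those not called.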

How the data were processed

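RNA of 21 samples of sorted cells was measured on Affymetrix arrays, 3 in each of 7 groups, and the comparison described here uses 6 of them. Per the labels' protocols, antibody-stained cells were sorted, and TriZol-extracted RNA was amplified in 2 cycles before hybridisation. The authors deposited linear MAS5 intensity values, and Affymetrix Expression Console 1.2 is named in the submitters' processing notes. The 2% trimmed mean was 500.0 in every array. Detection calls were not used here, and with 3 arrays a group the precision is set by their number.

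Of 45101 probe sets, 34958 have 1 gene symbol in the platform annotation, and 932 with several and 9211 not listed were left out. Each of 18194 genes was represented by its brightest probe set over all arrays, and 12169 with a signal above the table median of 80.6 in at least 3 arrays were tested. Values were taken as log2(signal + 15), where 15 is the 20th percentile. limma 3.58.1 in R 4.3.3 (lmFit, eBayes with trend) was fitted over all 21 arrays, with 14 residual degrees of freedom and 2-sided p-values adjusted over all genes tested. On data simulated for this comparison with 12169 genes, it recovered 49 of 50 genes changed by 1.5, 49 of 50 changed by 2 and 50 of 50 changed by 3 on the log2 scale, and 45 of 50 changed by -2, with 2 false calls. The simulated noise was normal, independent and equal in all arrays for a gene, with no array unlike the others of its group. The real 72 h arrays were not alike, so these counts check the method and do not give its error in these data.

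The comparison, the 40 gene lists and the genes followed were chosen with earlier results of these data known. The lists hold 996 entries, 88 of them without a probe set of their own. Genes were named as the 20 largest changes in each direction with no overlap between arrays, the 5 marker genes, up to 5 called members of each list, the abundant markers of other cells and pathway partners. Others named were chosen after their values were seen. P-values rest on the spread between arrays within groups, pooled over the 7 groups and adjusted by limma towards the trend over genes. They do not measure the spread of the 72 h and resident arrays alone. Residuals of arrays with the same replicate number correlated at 0.065, 0.14 and 0.0058. The numbers were not taken to pair the arrays, though so few arrays cannot settle it. Alternatives were other pseudocounts, normalizations, filters, probe set summaries and test settings, and leaving out each array in turn. Promoters came from RefSeq on GRCm38.p6, and 74 of the 89 genes called had one in that table.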

Additional observations from a re-analysis of the deposited data

How the results depend on the processing

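The count of 89 genes called (86 higher, 3 lower) stayed within 1.5 times under most alternatives. It was 140 with no minimum fold (12 lower), 15 with limma's treat (15 higher, 0 lower) and 50 on the 6 arrays alone (48 higher), and leaving out an array gave 61 to 193 genes, 59 to 168 higher and 1 to 25 lower, the highest without 72 h replicate 3. Genes called lower numbered 8 with a pseudocount of 60.0, 5 with quantile normalization, 5 without the trend and 5 with array weights. With the replicate number as a block, 92 were higher and 6 lower. For 3 of 6 arrays the closest residuals were those of the same number, and so few arrays cannot settle whether the numbers are pairs. Called members of process lists, 30.0 in the main setting, were 7 with treat, 19 on the 6 arrays and 20 to 53 with an array left out. Of the 89 genes, 42 differed from Ly-6B- macrophages of 168 h, 10.0 with treat, 22 on the 6 arrays and 37 to 49 with an array left out, alternatives chosen after seeing the data. Of the 89 genes, 47 were called with each array left out and 31 under every alternative other than treat. Ptprs reversed, at -0.012 with the mean of probe sets. The cause of these changes was not tested. Some of the alternatives use fewer arrays or a stricter test. Low signal near the floor limits the folds of 11 genes.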

Other observations

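The eicosanoid genes around Ltb4r1 were measured in the same arrays. Ltb4r1 was the 1 gene called of 22 tested, with a list median of -0.02. Ptgr1, which inactivates leukotriene B4 and prostaglandins, averaged 4618 at 72 h and 2559.6 in resident cells, a log2 change of 0.84 (limma, adjusted p = 0.0018) that was under 2-fold. Lta4h, which makes leukotriene B4, averaged 3476 at 72 h and 3293 in resident cells (log2 change 0.07), and Alox5 averaged 4688 at 72 h and 6069 in resident cells (-0.37), neither called. Cholesterol synthesis (19 genes tested), scavenger receptors (15), lipid handling (30), pattern recognition (27), iron and heme (17) and costimulatory ligands (15) held 0 called genes. Within these lists, Acadl, a mitochondrial fatty acid oxidation enzyme, had an adjusted p of 0.0081 at a log2 change of 0.57, and Mefv, the pyrin gene, one of 0.00017 at 0.97, both under 2-fold.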
